A study of Mus musculus with 9 samples.

Results

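Genes of the axon guidance ligand and receptor families were followed in MS1 cells, a mouse line of pancreatic islet endothelium, across 3 groups of 3 samples. The members are the rows of the gene table whose symbols name a semaphorin, plexin, ephrin, Eph receptor, Slit, Robo, Unc5 receptor or netrin, which were 63 of 17565 rows. All cells carried a lentiviral pCDH vector. Control cells had pCDH-puro, the second group had pCDH-TAZS4A and the third pCDH-TAZ-CAMTA1, each stably expressed. TAZ is a transcriptional co-activator restrained by the Hippo pathway and works through TEAD proteins on DNA, and TAZ4A carries serine-to-alanine changes at sites of the Hippo kinases. TAZ-CAMTA1 is the fusion oncoprotein of epithelioid hemangioendothelioma, a vascular tumour. The labels do not say whether a group is 1 clone or a pool of infected cells, or whether its samples came from separate cultures, so p-values measure the spread between these samples, which may be technical.

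Guidance cues were named for steering growing axons, and endothelial cells use the same molecules to steer vessel sprouts, set arterial and venous borders and control the barrier. Semaphorins signal through plexins, and the secreted class 3 semaphorins mostly need a neuropilin beside the plexin. Ephrins are bound to the membrane and signal in both directions when they touch Eph receptors on a neighbouring cell, while Slits are secreted ligands of Robo receptors and netrins bind Unc5 and DCC family receptors. The question the design poses is how these genes stand under TAZ4A and under the fusion, each against vector cells and against each other.

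The level of a gene is its deposited CPM, reads per gene over a scaled library size, given for replicates 1 to 3 in that order or as mean ± SD over n = 3 samples. Log2 fold changes are limma estimates on log2(CPM + 0.5) ± their standard error, and a gene rose or fell only where the adjusted p was under 0.05. Libraries held 21966004 to 34224715 reads in genes, so that a count of 0 allows up to 0.0878 to 0.139 CPM, taken as 3 reads and covering counting error only. Wwtr1, the gene of TAZ, went against the TAZ4A label: it stood at 545, 536 and 570.3 CPM in control and 319, 320.4 and 335 CPM in the TAZ4A-labelled libraries (log2 fold change -0.76 ± 0.15, adjusted p = 0.00571). In TAZ-CAMTA1 it stood at 492, 328 and 491 CPM (log2 fold change against control -0.36 ± 0.15, adjusted p = 0.0981, and adjusted p = 0.00534 with its replicate 2 left out). The directions given below for TAZ4A rest on that label. The counts per gene do not separate transgene from endogenous RNA. Camta1 was higher in TAZ-CAMTA1 than in control, 13.1 ± 0.579 against 4.05 ± 0.923 CPM (log2 fold change 1.60 ± 0.14, adjusted p = 7.58e-05), and stood at 4.91 ± 0.253 CPM in the TAZ4A-labelled libraries. Of 12 endothelial markers 11 passed the filter on low values (0.5 CPM in at least 3 libraries) and Cldn5 was near 0. Against control 4 fell in the TAZ4A-labelled libraries, where 11.7% of all genes tested fell, and 1 rose in TAZ-CAMTA1, where 16.8% rose. Without TAZ-CAMTA1 replicate 2, 11 fell in the TAZ4A-labelled libraries (30.6% of all genes), and 6 rose and 2 fell in TAZ-CAMTA1 (28.3% and 32.6%). The summed level of the endothelial markers was 7412 to 7808 TPM (reads scaled for transcript length) in control, 5423 to 5529 TPM in the TAZ4A-labelled libraries and 5922 to 8730 TPM in TAZ-CAMTA1. Of 24 markers of neurons, glia, fibroblasts or mural cells, blood, epithelium and lymphatic vessels, 8 passed the filter. In each comparison with control 4 rose and 1 fell. The shares of all genes were 13.2% and 11.7% in the TAZ4A-labelled libraries and 16.8% and 15.3% in TAZ-CAMTA1. With TAZ-CAMTA1 replicate 2 left out, 5 rose and 3 fell in the TAZ4A-labelled libraries (28.1% and 30.6% of all genes). In TAZ-CAMTA1 4 rose and 1 fell (28.3% and 32.6%). The 4 that rose with all libraries were Lyve1, Pdgfra, Pdgfrb and Col1a1, and genes of this list were named after their values were seen. Lyve1 (lymphatic vessels) stood at 121, 186 and 268 CPM in control, TAZ4A-labelled and TAZ-CAMTA1 libraries. The others, Pdgfra (2.95, 9.03 and 7.19 CPM), Pdgfrb (2.49, 4.30 and 5.19 CPM) and Col1a1 (0.102, 0.655 and 0.596 CPM), are listed for fibroblasts or mural cells. Rgs5 and Cspg4, listed for the same cells, were not among the 4 that rose. The log2 fold changes of Lyve1, Pdgfra, Pdgfrb and Col1a1, in this order, were 0.62 and 1.13, 1.46 and 1.11, 0.68 and 0.92, and 0.94 and 0.87. The highest of the list was Cd68 (blood cell), at 488 ± 36.4 CPM in control, Pdpn (lymphatic vessels) stood at 39.5 CPM and Krt18 (epithelium) at 22.3 CPM, while Ptprc, Prox1, Cdh1, Rbfox3, Gfap and Sox10 averaged at most 0.0918 CPM in every group. That list summed to 1092 to 1213 TPM in control, 1061 to 1075 TPM in the TAZ4A-labelled libraries and 1258 to 1413 TPM in TAZ-CAMTA1. The part of these marker shifts in the results below was not tested.

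One library, TAZ-CAMTA1 replicate 2, lay apart, with log2 correlations across genes of 0.963 and 0.962 with the other TAZ-CAMTA1 samples, against 0.997 to 0.999 for the other pairs within a group. Among the 44 members that passed the filter on low values, 16 were under 0.67 times the mean of TAZ-CAMTA1 replicates 1 and 3 in this library, and 3 were over 1.5 times it. Over all 12350 genes tested the shares were 21.3% and 16.1%. The long transcripts of Sema6d, Slit2 and Plxna2 stood at 0.368, 0.461 and 0.471 times the mean of the other 2, and the short Efna4 at 1.69. Other members did not follow length: the short Ntn4 was at 0.393, the long Ephb2 at 1.12 and Sema3c, with 4 reads in the group, at 2.18. Across the 44 members this ratio and the annotated exon length had a Spearman correlation of -0.593, a description of genes that share 1 library. All 9 libraries share 1 estimate of the spread of each gene. This library thus enters the standard error and adjusted p of TAZ4A against control, but not the log2 fold change of that comparison. Calls that change with this library are given with and without it.

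The bases before the transcription start are shown for the member with the largest rise in the TAZ4A-labelled libraries (Sema3c), that with the largest rise in TAZ-CAMTA1 (Sema7a), and both members with sample-by-sample values that hold the TEAD motif there (Epha2 and Plxnd1). RefSeq promoters on GRCm38.p6, the same assembly as mm10, were found for 53 of the 63 members. Each sequence is the 250 bases upstream of the start, 5′ to 3′ on the gene's strand, and capitals mark GGAATG or its reverse complement CATTCC, searched on both strands with overlaps allowed. The RefSeq start of Sema7a lies a few bases upstream of the start in the gene table given below.
Sema3c, chr5:17574566-17574815, plus strand: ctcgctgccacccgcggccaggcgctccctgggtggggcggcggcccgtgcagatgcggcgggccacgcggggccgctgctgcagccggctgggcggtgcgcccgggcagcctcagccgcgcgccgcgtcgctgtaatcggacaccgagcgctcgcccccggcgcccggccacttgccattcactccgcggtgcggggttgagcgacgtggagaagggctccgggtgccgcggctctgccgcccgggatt
Sema7a, chr9:57939862-57940111, plus strand: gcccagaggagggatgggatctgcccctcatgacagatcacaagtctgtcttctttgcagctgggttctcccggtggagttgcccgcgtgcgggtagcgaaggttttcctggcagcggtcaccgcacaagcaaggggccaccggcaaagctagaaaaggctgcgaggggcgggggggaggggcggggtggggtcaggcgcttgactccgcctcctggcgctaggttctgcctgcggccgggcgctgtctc
Epha2, chr4:141300971-141301220, plus strand: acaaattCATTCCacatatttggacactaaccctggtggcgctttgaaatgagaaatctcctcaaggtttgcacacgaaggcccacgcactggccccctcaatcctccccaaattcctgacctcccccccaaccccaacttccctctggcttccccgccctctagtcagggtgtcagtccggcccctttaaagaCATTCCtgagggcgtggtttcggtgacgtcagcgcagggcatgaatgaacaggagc
Plxnd1, chr6:115995006-115995255, minus strand: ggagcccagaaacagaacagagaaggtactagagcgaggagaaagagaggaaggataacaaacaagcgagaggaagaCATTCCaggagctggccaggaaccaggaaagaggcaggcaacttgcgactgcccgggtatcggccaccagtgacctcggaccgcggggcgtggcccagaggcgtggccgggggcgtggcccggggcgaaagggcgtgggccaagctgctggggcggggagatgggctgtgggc
The Epha2 motifs begin 243 and 56 bases before the start and the Plxnd1 motif 173 bases before it, all as CATTCC. In the window from 250 bases before to 50 after the start, 8 of the 69 member promoters (11.6%) held the motif, against 14.7% of all 32851 RefSeq promoters. The other 6 were those of Efnb2, Sema4a, Epha1, Plxnb1, Ntn3 and Robo2. Neither Sema3c nor Sema7a had these letters in the window.

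Of the 63 members 44 were tested. In the TAZ4A-labelled libraries against control 13 rose and 14 fell, where 13.2% of all genes tested rose and 11.7% fell. In TAZ-CAMTA1 against control 17 rose and 5 fell, against 16.8% and 15.3% of all genes. Between the transgenes, 19 were higher and 9 lower in TAZ-CAMTA1 than in the TAZ4A-labelled libraries, against 19.4% and 18.5%. Quantile normalization gave 14 and 7 for TAZ-CAMTA1 against control, and TPM gave 13 and 7 for the TAZ4A-labelled libraries. The first and second comparison share the control samples, and the third shares samples with both. Without TAZ-CAMTA1 replicate 2 the counts were 21 and 17 (28.1% and 30.6% of all genes), 22 and 7 (28.3% and 32.6%), and 21 and 12 (30.5% and 32.5%). The median log2 fold change of the members was 0.22, 0.18 and 0.20 in the 3 comparisons, while that of all genes tested was -0.0089, -0.034 and -0.020. The filter kept 8 of the 44 although at least 1 group averaged under 0.5 CPM (Sema3b, Sema3c, Sema3d, Sema3g, Sema4f, Sema6a, Plxnb3 and Ntn1), so that the counts are no support for a change of the families as a whole.

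**Figure D1:**
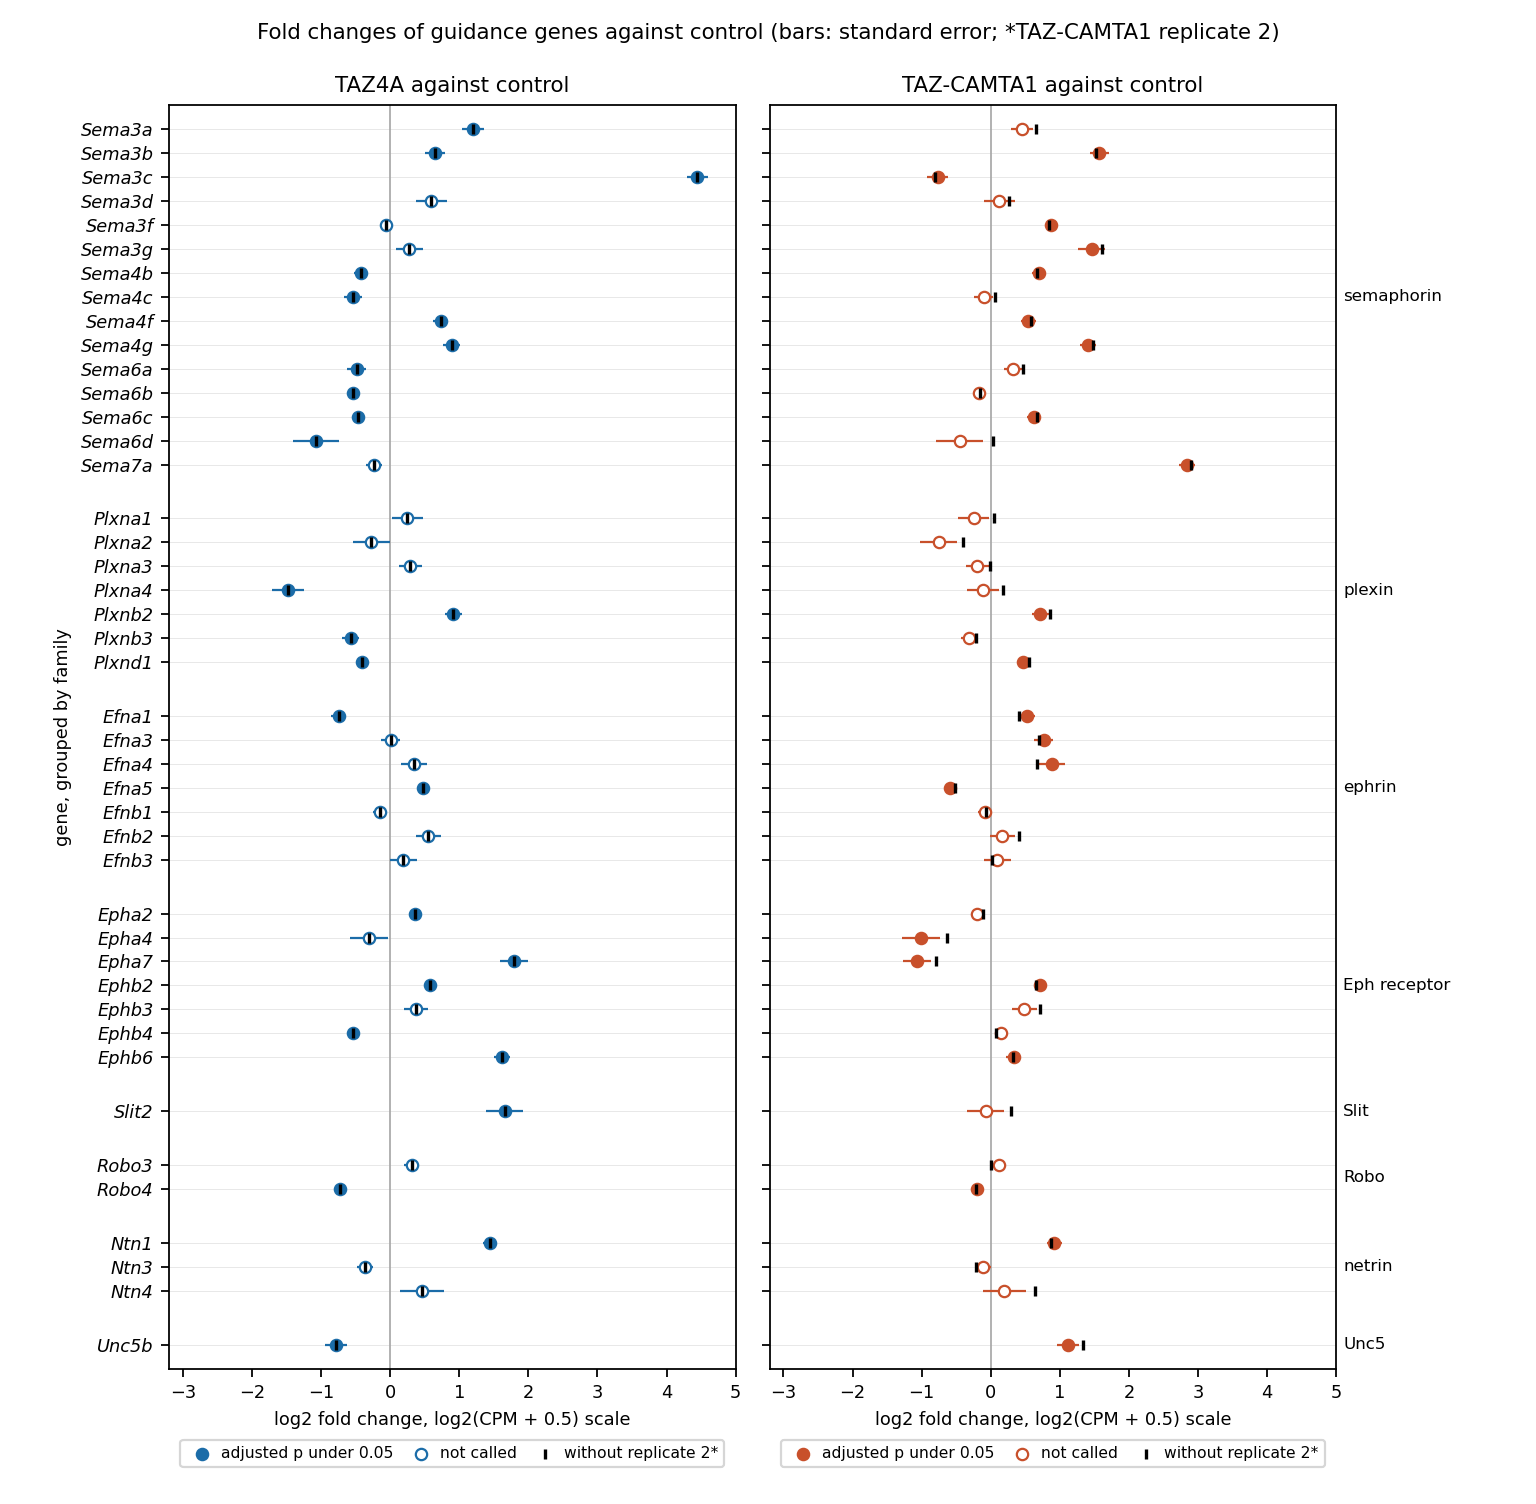
Log2 fold change on the log2(CPM + 0.5) scale for 43 tested guidance genes, with TAZ4A against control on the left and TAZ-CAMTA1 against control on the right. Filled points passed the test, open points did not, bars are standard errors and black ticks give the estimate without TAZ-CAMTA1 replicate 2. Sema3c at 4.44 on the left and Sema7a at 2.84 on the right lie farthest from 0.

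On the length-scaled TPM scale, receptors known from endothelium stood at the top. In control Robo4, the endothelial Robo, stood at 508 ± 14.4 TPM, and Plxnd1, the endothelial plexin, at 244 ± 18.3 TPM. Efna1, an ephrin anchored by a lipid, followed at 148 ± 8.99 TPM and Ephb4, the receptor of the venous side, at 129.9 ± 4.68 TPM. The next 6 were Sema4c at 97.2 ± 0.865, Plxnb2 at 75.7 ± 7.20, Epha2 at 70.5 ± 4.68, Sema3f at 65.0 ± 4.04, Plxna2 at 63.9 ± 8.14 and Sema6b at 57.1 ± 3.56 TPM. Plxnb2 and Epha2, and likewise Sema3f, Plxna2 and Sema6b, differed by no more than the SD of the more variable neighbour. The first 3 in the TAZ4A-labelled libraries were Robo4 at 318 ± 13.4, Plxnd1 at 191 ± 7.08 and Plxnb2 at 148 ± 5.09 TPM. In TAZ-CAMTA1 they were Robo4 at 424 ± 43.3, Plxnd1 at 328 ± 67.1 and Efna1 at 204 ± 4.06 TPM.

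**Figure D2:**
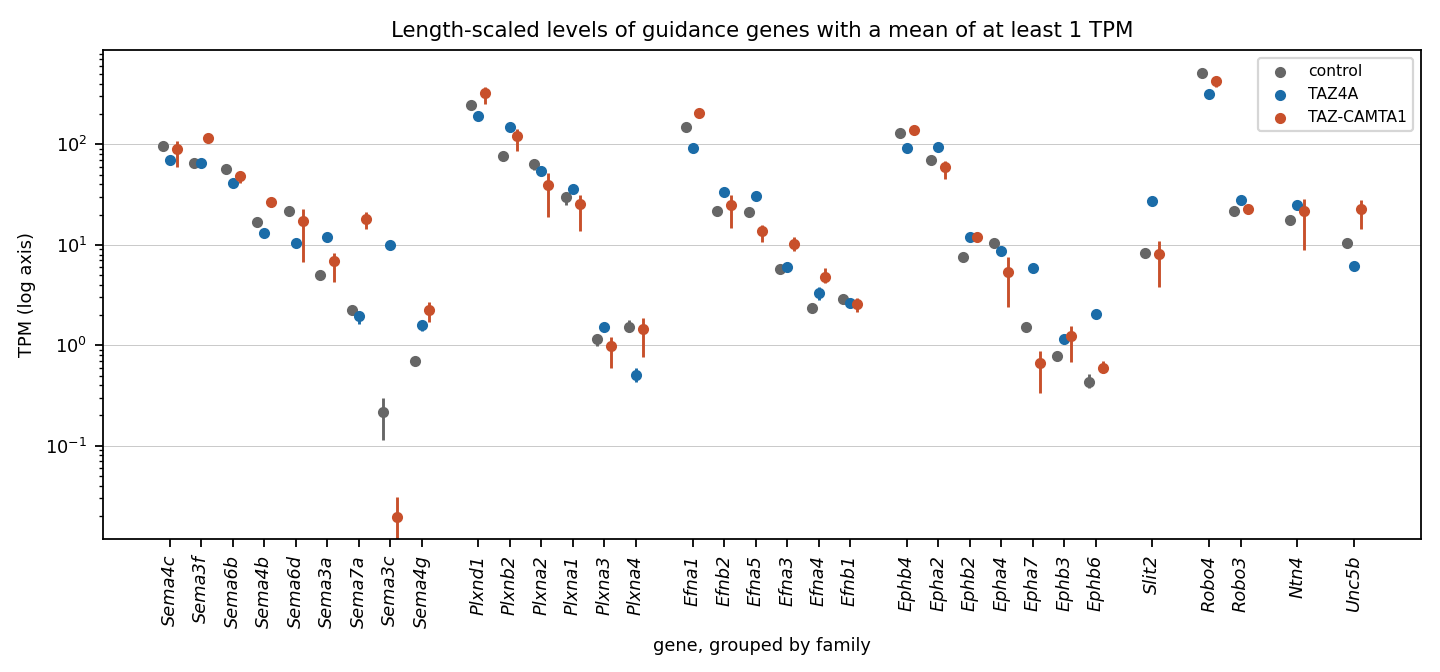
TPM on a log axis for the guidance genes with a mean of at least 1 TPM over the 9 libraries, with points for group means and lines from the lowest to the highest sample. Robo4 stands highest in each group, and the Sema3c line of TAZ-CAMTA1 runs off the axis because 1 library is at 0.

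Semaphorins were the largest family, with 15 of 19 members tested. In the TAZ4A-labelled libraries 5 rose and 6 fell against control, where 13.2% and 11.7% of all genes did. In TAZ-CAMTA1 8 rose and 1 fell, against 16.8% and 15.3%. Between the transgenes 10 were higher and 2 lower in TAZ-CAMTA1, against 19.4% and 18.5%. The smaller families below are to be read against the same shares. The median log2 fold change of the 15 was -0.059, 0.54 and 0.62 in these comparisons. The value 0.54 is that of Sema4f, whose reads across introns were as many in each group, as described below. Sema3b, Sema3c, Sema3d, Sema3g, Sema4f and Sema6a are among the 15 although at least 1 group averaged under 0.5 CPM. Without TAZ-CAMTA1 replicate 2 the counts were 6 and 6, 10 and 2, and 11 and 2.

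Among the secreted class 3 semaphorins, Sema3c (chr5:17574816-17730267, mm10, plus strand), a cue of cardiac outflow tract and vessel development, was nearly absent from control, at 0.604, 0.239 and 0.470 CPM. In the TAZ4A-labelled libraries it stood at 19.0, 18.5 and 21.4 CPM, and in TAZ-CAMTA1 at 0.0617, 0.0672 and 0 CPM. No sample of these groups overlapped. The rise in the TAZ4A-labelled libraries was 4.44 ± 0.15, adjusted p = 2.91e-07, the largest of the members, and the fall in TAZ-CAMTA1 -0.77 ± 0.15, adjusted p = 0.00565. By summed reads, which the log2(CPM + 0.5) scale compresses at low levels, the first was 47.4-fold (95% counting interval 34.1 to 67.8), from 36 to 1944 reads, while TAZ-CAMTA1 had 4 reads in all 3 libraries. The fall against control was -0.80 (adjusted p = 0.00036) without TAZ-CAMTA1 replicate 2.

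Sema3a, the cue that collapses growth cones and limits vessel sprouting, stood at 13.8, 14.3 and 16.6 in control, 34.5, 32.9 and 37.3 in the TAZ4A-labelled libraries and 23.4, 15.5 and 23.8 CPM in TAZ-CAMTA1. Every TAZ4A-labelled sample was above every other sample, and TAZ-CAMTA1 replicate 2 lay within the control range while replicates 1 and 3 lay above it. Sema3a rose in the TAZ4A-labelled libraries (1.20 ± 0.16, adjusted p = 0.000802) and was lower in TAZ-CAMTA1 than there (-0.75 ± 0.16, adjusted p = 0.00739). Against control the TAZ-CAMTA1 value was 0.45 ± 0.16, adjusted p = 0.0653, and without replicate 2 it was 0.65 (adjusted p = 3.6e-06). Sema3f, a ligand of neuropilin 2 that repels endothelial cells, showed another order, with 92.5, 86.0 and 93.3 in control, 89.6, 90.2 and 81.1 in the TAZ4A-labelled libraries and 169, 177 and 156 CPM in TAZ-CAMTA1. The control and TAZ4A-labelled samples overlapped (-0.059 ± 0.081, adjusted p = 0.675), while all 3 TAZ-CAMTA1 samples were higher than both. Against control the rise was 0.88 ± 0.081, adjusted p = 0.000101, and without replicate 2 it was 0.84 (adjusted p = 8.41e-09).

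The low class 3 members Sema3b and Sema3g were higher in TAZ-CAMTA1 than in either other group. Sema3b went from 0.122 ± 0.0774 CPM in control to 0.473 ± 0.118 in the TAZ4A-labelled libraries (0.65 ± 0.14, adjusted p = 0.00991) and 1.34 ± 0.184 in TAZ-CAMTA1 (1.57 ± 0.14, adjusted p = 9.24e-05). Under quantile normalization the first of these was 0.21 (adjusted p = 0.384). Sema3g stood at 0.195 ± 0.0513, 0.354 ± 0.176 and 1.44 ± 0.423 CPM and rose in TAZ-CAMTA1 (1.46 ± 0.19, adjusted p = 0.000715). Its difference between the transgenes was 1.18 ± 0.19, adjusted p = 0.00172. Sema3d, with group means from 0.365 to 0.820 CPM, was not called with all libraries (0.60 ± 0.22, adjusted p = 0.0918 in the TAZ4A-labelled libraries, and 0.60 (adjusted p = 0.0126) without TAZ-CAMTA1 replicate 2). Sema3e, the ligand of Plxnd1, was under the filter with 3 reads in control, 53 in the TAZ4A-labelled libraries and 0 in TAZ-CAMTA1, and the first 2 give 15.5-fold (95% counting interval 5.02 to 77.5).

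Sema7a (chr9:57940135-57962865, mm10, plus strand), a semaphorin held to the membrane by a lipid anchor that signals through integrins and Plxnc1, changed most in TAZ-CAMTA1. It stood at 3.16, 2.90 and 3.07 in control, 2.69, 2.14 and 2.76 in the TAZ4A-labelled libraries and 24.1, 23.1 and 27.8 CPM in TAZ-CAMTA1. All 3 fusion samples, replicate 2 included, lay far above the other 6. The rise was 2.84 ± 0.11, adjusted p = 1.32e-06 against control and 3.08 ± 0.11, adjusted p = 4.22e-07 against the TAZ4A-labelled libraries, which themselves were at -0.23 ± 0.11, adjusted p = 0.193 against control. By summed reads the low Sema3b, which this scale compresses, rose 10.8-fold over control (95% counting interval 5.80 to 22.2). Sema7a rose 8.18-fold (95% counting interval 7.19 to 9.33), and without replicate 2 its log2 fold change was 2.90 (adjusted p = 6.03e-12). Its receptor Plxnc1 was under the filter, with 3, 33 and 9 reads in control, TAZ4A-labelled and TAZ-CAMTA1 libraries.

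The transmembrane class 4 members moved in several ways. Sema4b stood at 29.4, 26.4 and 26.8 in control, 20.1, 22.7 and 18.4 in the TAZ4A-labelled libraries and 46.5, 46.5 and 42.1 CPM in TAZ-CAMTA1, so that the 3 groups lay apart in this order from middle to low to high. It fell in the former (-0.43 ± 0.096, adjusted p = 0.011) and rose in the latter (0.70 ± 0.096, adjusted p = 0.000833, and 0.67 (adjusted p = 3.34e-06) without replicate 2). The fall was lost without control replicate 1 (-0.38, adjusted p = 0.0528), TAZ4A replicate 1 (-0.42, adjusted p = 0.0518) or TAZ4A replicate 3 (-0.36, adjusted p = 0.0538). It was -0.43 (adjusted p = 0.00011) without TAZ-CAMTA1 replicate 2. Sema4c, the semaphorin with the highest mean TPM and a ligand of Plxnb2, stood at 152, 157 and 148 in control, 106, 110.3 and 99.2 in the TAZ4A-labelled libraries and 164, 113 and 154 CPM in TAZ-CAMTA1. Its fall in the TAZ4A-labelled libraries (-0.53 ± 0.13, adjusted p = 0.0193) was lost without any single library of the 2 groups, with adjusted p from 0.0509 to 0.0818. The samples of the 2 groups lay apart, and without TAZ-CAMTA1 replicate 2 the fall was -0.53 (adjusted p = 9.58e-08). The authors' deposited table gives it a false discovery rate of 0.0081. The higher value in TAZ-CAMTA1 than in the TAZ4A-labelled libraries (0.43 ± 0.13, adjusted p = 0.0339) was lost without any single library other than TAZ-CAMTA1 replicate 2, with adjusted p from 0.0556 to 0.115, and was 0.60 (adjusted p = 1.01e-07) without that replicate. Reads of Sema4c and of the antisense gene D430040D24Rik may not be told apart, since their exons overlap and the use of strand in counting is not given in the sources used here. Sema4g, another class 4 member, rose from 1.23 ± 0.109 CPM to 2.72 ± 0.299 CPM (0.89 ± 0.12, adjusted p = 0.000705) and 4.10 ± 0.525 CPM (1.40 ± 0.12, adjusted p = 6.98e-05). Sema4f rose from 0.480 ± 0.0516 to 1.14 ± 0.181 and 0.929 ± 0.0787 CPM (0.74 ± 0.11, adjusted p = 0.00128 and 0.54 ± 0.11, adjusted p = 0.0059), but its reads across introns were as many in each group, as described below. With quantile normalization the second rise was 0.25 (adjusted p = 0.119).

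Of the class 6 members, which signal through class A plexins, Sema6d stood at 64.1, 58.2 and 68.8 CPM in control. It was at 30.3, 28.5 and 31.1 CPM in the TAZ4A-labelled libraries and 63.8, 23.8 and 65.7 CPM in TAZ-CAMTA1, whose replicate 2 lay under all TAZ4A-labelled samples while replicates 1 and 3 lay within the control range. The fall in the TAZ4A-labelled libraries (-1.07 ± 0.34, adjusted p = 0.0496) was at the threshold: without any single library of control or TAZ4A the adjusted p was 0.104 to 0.139, while leaving out TAZ-CAMTA1 replicate 2 it was 1.94e-10. The authors' deposited table gives this fall a false discovery rate of 0.00058. Between the transgenes the log2 fold change was 0.62 ± 0.34, adjusted p = 0.176, and 1.10 (adjusted p = 6.89e-10) without that replicate. Sema6b stood at 98.9, 89.2 and 91.9 in control, 68.0, 66.2 and 59.1 in the TAZ4A-labelled libraries and 85.3, 80.9 and 82.0 CPM in TAZ-CAMTA1. It fell in the TAZ4A-labelled libraries (-0.53 ± 0.079, adjusted p = 0.00129), and TAZ-CAMTA1 was higher than these (0.36 ± 0.079, adjusted p = 0.00773, and 0.25 with adjusted p = 0.131 on TPM). Against control the fusion was at -0.17 ± 0.079, adjusted p = 0.131, and at -0.16 (adjusted p = 0.0443) without replicate 2. The low Sema6c fell from 1.33 ± 0.126 to 0.827 ± 0.0557 CPM (-0.46 ± 0.095, adjusted p = 0.00745, and -0.35 with adjusted p = 0.0832 on TPM) and rose to 2.31 ± 0.138 CPM in TAZ-CAMTA1 (0.62 ± 0.095, adjusted p = 0.00149). Sema6a fell from 0.737 ± 0.0443 to 0.383 ± 0.0372 CPM (-0.49 ± 0.13, adjusted p = 0.0283) and stood at 1.06 ± 0.271 CPM in TAZ-CAMTA1 (0.32 ± 0.13, adjusted p = 0.0966 against control, and 0.47 (adjusted p = 0.0113) without replicate 2). Sema4a, Sema4d and Sema5a were under the filter, with at most 32 reads in any group.

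**Figure D3:**
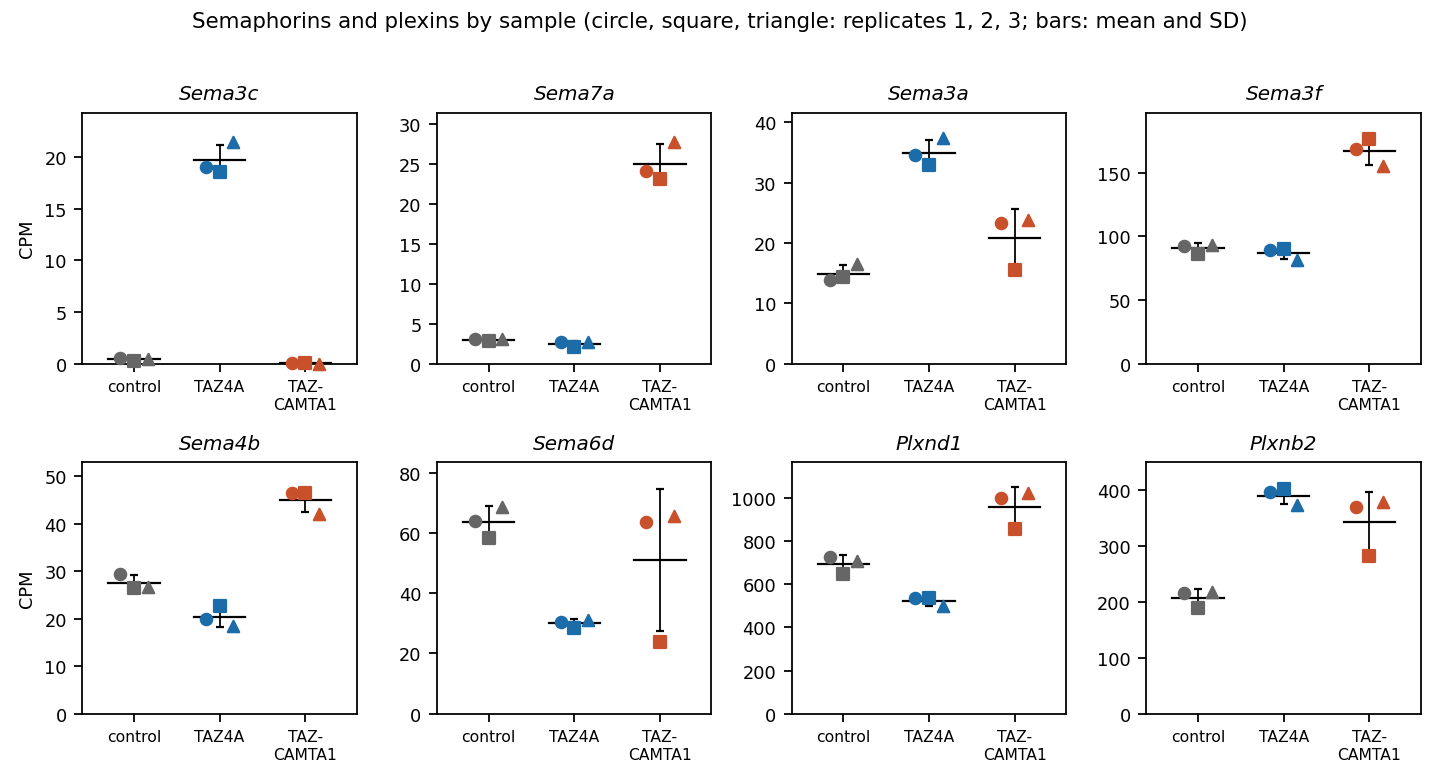
CPM of 6 semaphorins and 2 plexins in each sample, with a linear axis from 0 in each panel. Circles, squares and triangles are replicates 1, 2 and 3, and black lines give the mean and SD of 3 samples. Sema3c is high only in the TAZ4A-labelled samples and Sema7a only in the TAZ-CAMTA1 samples, and the square of TAZ-CAMTA1 lies under the other 2 samples of its group for Sema3a, Sema6d, Plxnd1 and Plxnb2.

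Plexins, the semaphorin receptors, had 7 of 9 members tested. In the TAZ4A-labelled libraries 1 rose and 3 fell, in TAZ-CAMTA1 2 rose against control and the other 5 did not pass, and between the transgenes 2 were higher and 1 lower in TAZ-CAMTA1. The median log2 fold change of the 7 was -0.27, -0.20 and -0.20. Leaving out TAZ-CAMTA1 replicate 2, the counts were 3 and 4, 2 and 1, and 2 and 2.

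Plxnd1 (chr6:115954811-115995005, mm10, minus strand), the receptor of Sema3e on endothelium, stood at 726, 647 and 707 CPM in control. It was lower in all TAZ4A-labelled samples, at 536, 534 and 498 CPM, and higher in all TAZ-CAMTA1 samples, at 1000.2, 855 and 1024 CPM. The log2 fold changes were -0.41 ± 0.091, adjusted p = 0.011 and 0.47 ± 0.091, adjusted p = 0.00493 against control, and 0.87 ± 0.091, adjusted p = 0.000136 between the transgenes. The rise was 0.55 (adjusted p = 2.62e-07) without TAZ-CAMTA1 replicate 2. The fall was lost under quantile normalization (-0.33, adjusted p = 0.0591), without control replicate 1 (-0.37, adjusted p = 0.0528) and without TAZ4A replicate 3 (-0.37, adjusted p = 0.0573). It was -0.41 (adjusted p = 1.86e-06) without TAZ-CAMTA1 replicate 2. With TPM in place of CPM neither change against control passed (adjusted p = 0.136 and 0.0744).

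Plxnb2, which binds class 4 semaphorins, was higher than control with both transgenes. It stood at 215, 189 and 217 in control, 396, 401 and 373 in the TAZ4A-labelled libraries and 369, 283 and 378 CPM in TAZ-CAMTA1, and no sample of either group reached down to the control range. The rises were 0.91 ± 0.12, adjusted p = 0.000674 and 0.72 ± 0.12, adjusted p = 0.00247, and the difference between the transgenes was -0.20 ± 0.12, adjusted p = 0.229. Without replicate 2 the rise in TAZ-CAMTA1 was 0.85 (adjusted p = 5.41e-09). Plxna4, a receptor of Sema3a and class 6 semaphorins, fell with the TAZ4A label: it stood at 7.57, 7.17 and 9.02 in control, 2.14, 2.49 and 2.95 in the TAZ4A-labelled libraries and 9.54, 4.74 and 8.37 CPM in TAZ-CAMTA1. The fall was -1.48 ± 0.23, adjusted p = 0.00192, and TAZ-CAMTA1 stood above the TAZ4A-labelled libraries by 1.37 ± 0.23, adjusted p = 0.00228 and overlapped control. Exons of Plxna4 overlap the antisense gene Plxna4os3, so its reads are uncertain in the same way. Its antisense neighbour Plxna4os1, an RNA that the symbol rule also matched and that is no guidance protein, stood at 18.2, 18.9 and 16.4, 12.1, 11.9 and 10.4 and 18.7, 30.2 and 18.2 CPM in the 3 groups. It was at -0.61 ± 0.18, adjusted p = 0.0401 in the TAZ4A-labelled libraries, a call lost without any single library of the 2 groups (adjusted p from 0.0741 to 0.144), and at 0.90 ± 0.18, adjusted p = 0.00545 between the transgenes. Leaving out TAZ-CAMTA1 replicate 2, these were -0.61 (adjusted p = 3.34e-06) and 0.67 (adjusted p = 4.41e-06).

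Plxna1 and Plxna2, receptors that pair with neuropilins, were not called with all 9 libraries. Plxna2 stood at 289.6 ± 31.5 CPM in control, 239 ± 6.25 in the TAZ4A-labelled libraries and 181 ± 67.6 in TAZ-CAMTA1, with -0.76 ± 0.26, adjusted p = 0.0594 against control for the fusion and -0.40 (adjusted p = 0.000187) without replicate 2. Plxna2 in the TAZ4A-labelled libraries was at -0.27 ± 0.26, adjusted p = 0.543, and at -0.27 (adjusted p = 0.00186) without that replicate. Plxna1 stood at 109.5 ± 13.9, 129.8 ± 2.85 and 95.4 ± 29.9 CPM. For the TAZ4A-labelled libraries it was at 0.25 ± 0.22, adjusted p = 0.497, and without TAZ-CAMTA1 replicate 2 at 0.25 (adjusted p = 0.00627), with -0.20 (adjusted p = 0.0344) between the transgenes. Of the low plexins, Plxnb3 fell from 0.871 ± 0.130 to 0.423 ± 0.0662 CPM in the TAZ4A-labelled libraries (-0.57 ± 0.12, adjusted p = 0.00914). Its scaled reads across introns, described below, were there at 0.747 times control (two-sided exact permutation p = 0.2). With TPM in place of CPM it was under the filter. Plxna3 was lower in TAZ-CAMTA1 (2.86 ± 0.715 CPM) than in the TAZ4A-labelled libraries (4.14 ± 0.272 CPM, -0.49 ± 0.17, adjusted p = 0.0486). Plxna3 in the TAZ4A-labelled libraries was at 0.29 ± 0.17, adjusted p = 0.268 against control, and at 0.29 (adjusted p = 0.0281) without TAZ-CAMTA1 replicate 2. Plxnb1 was under the filter with 2 reads in control and 42 in the TAZ4A-labelled libraries, 18.4-fold (95% counting interval 4.79 to 157).

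Ephrins, the membrane-bound ligands, had 7 of 8 members tested. In the TAZ4A-labelled libraries 1 rose and 1 fell, in TAZ-CAMTA1 3 rose and 1 fell against control, and 3 were higher and 1 lower in TAZ-CAMTA1 than in the TAZ4A-labelled libraries. The median log2 fold change was 0.19, 0.17 and 0.063. With that replicate left out 3 rose and 1 fell in the TAZ4A-labelled libraries, the further 2 being Efnb2 and Efna4, with Efna4 at 0.34 (adjusted p = 0.0207). In TAZ-CAMTA1 4 rose and 1 fell against control, the further one being Efnb2 (0.40 (adjusted p = 3.96e-05)).

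Efna1 and Efna5, both anchored by a lipid and ligands of class A Eph receptors, showed opposite orders. Efna1 (chr3:89271730-89280951, mm10, minus strand) stood at 103, 106 and 91.4 in control, 59.1, 62.1 and 57.4 in the TAZ4A-labelled libraries and 132, 169 and 133 CPM in TAZ-CAMTA1. Its fall was -0.74 ± 0.11, adjusted p = 0.0014, its rise 0.52 ± 0.11, adjusted p = 0.00785, and the span between the transgenes 1.27 ± 0.11, adjusted p = 6.04e-05. Efna5 stood at 44.4, 49.1 and 44.0, 62.2, 64.1 and 65.7 and 30.2, 27.5 and 33.2 CPM in the same order of groups. It rose in the TAZ4A-labelled libraries (0.48 ± 0.088, adjusted p = 0.00405) and fell in TAZ-CAMTA1 (-0.59 ± 0.088, adjusted p = 0.00125), with a difference of -1.07 ± 0.088, adjusted p = 3.79e-05 between them. The samples of the 3 groups did not overlap for either gene. Against control the fusion stood at 0.41 (adjusted p = 3.54e-05) for Efna1 and -0.52 (adjusted p = 2.8e-06) for Efna5 when TAZ-CAMTA1 replicate 2 was left out.

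Efnb2, the ephrin of arterial endothelium, stood at 38.8 ± 2.37 in control, 57.1 ± 2.07 in the TAZ4A-labelled libraries and 44.7 ± 12.0 CPM in TAZ-CAMTA1. All 3 TAZ4A-labelled samples were above control and the value was 0.55 ± 0.18, adjusted p = 0.0575, which did not pass. Without TAZ-CAMTA1 replicate 2 it was 0.55 (adjusted p = 3.39e-07), and the authors' deposited table lists a log2 fold change of 0.556 with a false discovery rate of 0.0190. Efna3 stood at 3.16, 2.78 and 2.82 in control, 2.94, 3.28 and 2.64 in the TAZ4A-labelled libraries and 4.29, 5.91 and 5.89 CPM in TAZ-CAMTA1, where it rose (0.77 ± 0.14, adjusted p = 0.0034). Efna4 rose there from 1.55 ± 0.101 to 3.37 ± 1.09 CPM (0.89 ± 0.19, adjusted p = 0.00766, and 0.61 with adjusted p = 0.0667 under quantile normalization). Both genes share exon sequence with an antisense gene (Gm15998 and 4731419I09Rik), so their reads are uncertain. Efnb1 and Efnb3, at 3.86 ± 0.331 and 0.935 ± 0.330 CPM in control, were not called in any comparison, with log2 fold changes from -0.15 to 0.19, and Efna2 was under the filter with at most 11 reads in a group.

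Eph receptors had 7 of 11 members tested. In the TAZ4A-labelled libraries 4 rose and 1 fell, in TAZ-CAMTA1 2 rose and 2 fell against control, and 1 was higher and 3 lower in TAZ-CAMTA1 than in the TAZ4A-labelled libraries. Their median log2 fold change was 0.37, 0.15 and -0.56. Without TAZ-CAMTA1 replicate 2 the counts were 5 and 2, 2 and 2, and 2 and 4.

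Epha7 (chr4:28813131-28967503, mm10, plus strand), a receptor of class A ephrins, had the largest log2 fold changes of this family on the log2(CPM + 0.5) scale. It stood at 5.11, 4.78 and 5.11 in control, 18.8, 19.6 and 17.2 in the TAZ4A-labelled libraries and 2.53, 1.31 and 2.79 CPM in TAZ-CAMTA1. It rose in the former (1.79 ± 0.20, adjusted p = 0.000296) and fell in the latter (-1.07 ± 0.20, adjusted p = 0.00483, and -0.80 (adjusted p = 2.04e-06) without replicate 2), so that the transgenes differed by -2.86 ± 0.20, adjusted p = 1.98e-05. Epha2, the main class A receptor of this line and a receptor of Efna1, stood at 115, 108 and 118 in control, 149.9, 150.0 and 139 in the TAZ4A-labelled libraries and 104, 87.3 and 107 CPM in TAZ-CAMTA1. The rise in the TAZ4A-labelled libraries was 0.36 ± 0.092, adjusted p = 0.0207, and TAZ-CAMTA1 was lower than these (-0.56 ± 0.092, adjusted p = 0.00172) and at -0.20 ± 0.092, adjusted p = 0.13 against control. The rise was lost without control replicate 1 (adjusted p = 0.0629), control replicate 2 (0.0872), TAZ4A replicate 1 (0.0871) or TAZ4A replicate 2 (0.0866), and the authors' deposited table gives it a false discovery rate of 0.0736. It was 0.36 (adjusted p = 8.59e-06) without TAZ-CAMTA1 replicate 2. Epha4, which binds both classes of ephrins, stood at 27.9, 25.4 and 27.3 in control, 21.5, 20.9 and 22.3 in the TAZ4A-labelled libraries and 15.6, 7.56 and 18.9 CPM in TAZ-CAMTA1. Its fall in TAZ-CAMTA1 (-1.01 ± 0.28, adjusted p = 0.0237) was lost without any single control library (adjusted p from 0.0606 to 0.0738) and was -0.63 (adjusted p = 4.54e-06) without replicate 2 of TAZ-CAMTA1. Epha4 in the TAZ4A-labelled libraries was at -0.31 ± 0.28, adjusted p = 0.495, and at -0.31 (adjusted p = 0.00141) without that replicate, and the difference between the transgenes went from -0.70 ± 0.28, adjusted p = 0.077 to -0.32 (adjusted p = 0.00221).

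Of the class B receptors, Ephb4, the venous receptor of Efnb2 and the Eph receptor with the highest mean TPM, stood at 232, 229 and 237 CPM in control. It was lower in all TAZ4A-labelled samples, at 158, 167 and 154 CPM (-0.54 ± 0.086, adjusted p = 0.00187), while TAZ-CAMTA1, at 254, 289.9 and 237 CPM, overlapped control (0.15 ± 0.086, adjusted p = 0.201). The transgenes differed by 0.70 ± 0.086, adjusted p = 0.000374. Exons of Ephb4 overlap the gene Zan on the other strand. Ephb2 stood at 15.1, 15.0 and 15.4 in control, 23.2, 23.7 and 21.6 in the TAZ4A-labelled libraries and 24.5, 27.1 and 23.8 CPM in TAZ-CAMTA1. It rose with both transgenes (0.57 ± 0.079, adjusted p = 0.000787 and 0.71 ± 0.079, adjusted p = 0.00028), and the difference between them was 0.14 ± 0.079, adjusted p = 0.204. Ephb6, a receptor without kinase activity, rose from 0.662 ± 0.105 to 3.06 ± 0.287 CPM in the TAZ4A-labelled libraries (1.62 ± 0.11, adjusted p = 1.32e-05). In TAZ-CAMTA1 it stood at 0.962 ± 0.0916 CPM, with 0.33 ± 0.11, adjusted p = 0.0478 against control 0.33 (adjusted p = 0.0544) without replicate 2 and 0.045 (adjusted p = 0.785) under quantile normalization, and the authors' deposited table gives a false discovery rate of 0.200. Ephb3 was not called with all libraries, with group means from 1.34 to 2.14 CPM. Without TAZ-CAMTA1 replicate 2 it rose in the TAZ4A-labelled libraries, by 0.37 (adjusted p = 0.00896), and in TAZ-CAMTA1, by 0.71 (adjusted p = 0.000137), with 0.33 (adjusted p = 0.0275) between them. Epha1, Epha5, Epha8 and Epha10 were under the filter with at most 27 reads in a group.

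**Figure D4:**
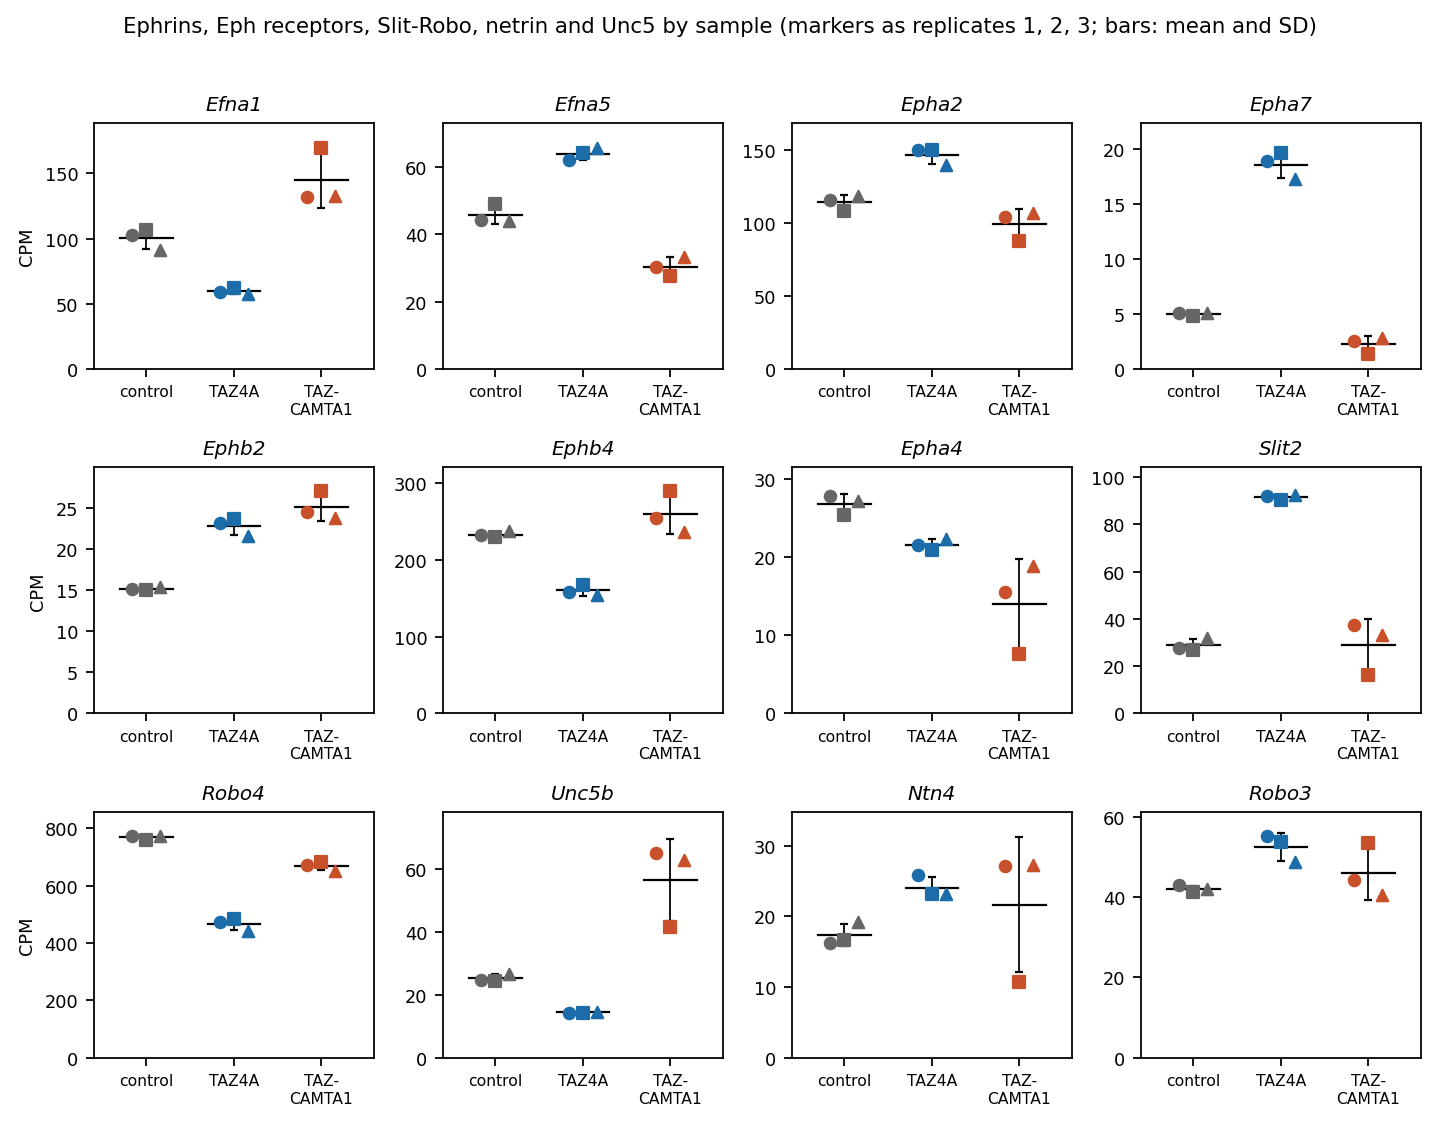
CPM of 12 ephrins, Eph receptors, Slit, Robo, netrin and Unc5 genes in each sample on linear axes from 0. Circles, squares and triangles are replicates 1, 2 and 3, and black lines give the mean and SD of 3 samples. Slit2 and Epha7 are high in the 3 TAZ4A-labelled samples and Unc5b in the TAZ-CAMTA1 samples, while TAZ-CAMTA1 replicate 2 stands apart for Epha4, Slit2, Ntn4 and Unc5b.

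In the Slit and Robo families, 1 of 3 Slits (Slit2) and 2 of 4 Robos (Robo3 and Robo4) passed the filter. The Slit rose and 1 Robo fell in the TAZ4A-labelled libraries, and 1 Robo fell in TAZ-CAMTA1 against control. Slit2 (chr5:47983155-48306282, mm10, plus strand), the secreted ligand, stood at 27.5, 26.9 and 32.0 in control, 92.1, 90.5 and 92.2 in the TAZ4A-labelled libraries and 37.4, 16.3 and 33.2 CPM in TAZ-CAMTA1. All TAZ4A-labelled samples were above 90 CPM and no other sample reached 40 CPM. The rise was 1.66 ± 0.27, adjusted p = 0.00207, and TAZ-CAMTA1 was lower than the TAZ4A-labelled libraries (-1.73 ± 0.27, adjusted p = 0.00127). Against control the fusion stood at -0.074 ± 0.27, adjusted p = 0.853, and at 0.29 (adjusted p = 0.00264) without replicate 2, whose value lay under the control range while the other 2 lay above it. Slit1 and Slit3 were under the filter. Slit1 had 23, 43 and 27 reads and Slit3 had 4, 26 and 2 reads in control, TAZ4A-labelled and TAZ-CAMTA1 libraries.

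Robo4 (chr9:37402046-37414022, mm10, plus strand), which stabilises the endothelial barrier, stood at 774, 761 and 774 CPM in control. The TAZ4A-labelled libraries were at 474, 482 and 441 CPM and TAZ-CAMTA1 at 674, 684 and 652 CPM, with all 3 groups apart. Robo4 fell in the TAZ4A-labelled libraries (-0.72 ± 0.065, adjusted p = 6.85e-05), and TAZ-CAMTA1 was higher than these (0.52 ± 0.065, adjusted p = 0.000386). The smaller value in TAZ-CAMTA1 against control (-0.20 ± 0.065, adjusted p = 0.0458) was lost without any single library other than TAZ-CAMTA1 replicate 2, with adjusted p from 0.0646 to 0.136. With the CPM values rescaled to equal sums it was -0.16 (adjusted p = 0.094), by edgeR -0.18 (adjusted p = 0.0648), and the authors' deposited table gives a false discovery rate of 0.306. Robo3, at 42.1 ± 0.777, 52.5 ± 3.38 and 46.1 ± 6.68 CPM, was not called with all libraries (0.31 ± 0.11, adjusted p = 0.0652 in the TAZ4A-labelled libraries). Leaving out TAZ-CAMTA1 replicate 2, it rose there by 0.31 (adjusted p = 0.000175) and was lower in TAZ-CAMTA1 than there, -0.31 (adjusted p = 0.000528). Robo1 and Robo2 had at most 3 reads in a group. Slit2 thus rose and Robo4 fell in the TAZ4A-labelled libraries. Binding of a Slit to any Robo receptor was not tested, so the 2 changes are not given as those of a pair.

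Among the netrin receptors, Unc5b (chr10:60762595-60831581, mm10, minus strand), the Unc5 receptor of endothelium, was tested, while Unc5c and Unc5d had at most 7 reads in a group. Unc5b stood at 24.6, 24.5 and 26.7 in control, 14.2, 14.4 and 14.6 in the TAZ4A-labelled libraries and 65.2, 41.5 and 63.0 CPM in TAZ-CAMTA1. The 3 groups lay apart, with TAZ-CAMTA1 replicate 2 the lowest of the fusion samples and still above every control sample. The fall in the TAZ4A-labelled libraries was -0.79 ± 0.16, adjusted p = 0.00671, the rise in TAZ-CAMTA1 1.12 ± 0.16, adjusted p = 0.00101, and the difference between the transgenes 1.91 ± 0.16, adjusted p = 4.51e-05. Without replicate 2 the rise was 1.33 (adjusted p = 5.07e-11). With TPM in place of CPM the fall was -0.71 (adjusted p = 0.0612). Unc5cl, which the symbol rule also matched but which is no netrin receptor, had at most 2 reads in a group.

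Of 4 netrins 3 were tested, and 1 of these (Ntn1) rose in each comparison with control (2 rose and 1 fell in the TAZ4A-labelled libraries, and 2 rose in TAZ-CAMTA1, without its replicate 2). The netrin with the highest mean TPM was Ntn4, a netrin of basement membranes, at 16.3, 16.7 and 19.2 in control, 25.8, 23.2 and 23.2 in the TAZ4A-labelled libraries and 27.1, 10.7 and 27.2 CPM in TAZ-CAMTA1. It was not called with all 9 libraries (0.46 ± 0.31, adjusted p = 0.355 and 0.20 ± 0.31, adjusted p = 0.653). Leaving out TAZ-CAMTA1 replicate 2, it stood at 0.46 (adjusted p = 3.04e-05) and 0.63 (adjusted p = 3.66e-06), and was called in both. Ntn1, the founding netrin, rose from 0.262 ± 0.0587 to 1.57 ± 0.157 CPM in the TAZ4A-labelled libraries (1.44 ± 0.11, adjusted p = 2.12e-05) and 0.940 ± 0.0909 CPM in TAZ-CAMTA1 (0.92 ± 0.11, adjusted p = 0.00035). Its reads across introns numbered 0, 3 and 0 in the 3 groups, as set out next. Ntn3, at 1.26 ± 0.107, 0.867 ± 0.0660 and 1.14 ± 0.215 CPM, was not called with all libraries (-0.37 ± 0.12, adjusted p = 0.0504 in the TAZ4A-labelled libraries, and -0.37 (adjusted p = 0.0179) without TAZ-CAMTA1 replicate 2) and shares exon sequence with Tbc1d24 and BC028777, and Ntn5 had at most 6 reads in a group.

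Unique reads across annotated introns on the member's own strand, scaled to the unique junction reads of the library (RPM), gave a look at the same libraries that separates spliced RNA of the gene from antisense reads. They are not independent of the CPM. Of 38 tested members with at least 10 such reads in both groups, 34 differed by at most 0.5 on the log2 scale from the CPM ratio in the TAZ4A comparison, with a median difference of 0.112. For TAZ-CAMTA1 against control it was 34 of 37, with a median of 0.117. Sema3c stood at 0.724 ± 0.548 RPM in control, 20.0 ± 0.980 in the TAZ4A-labelled libraries and 0.0353 ± 0.0612 in TAZ-CAMTA1. Sema7a stood at 2.75 ± 0.373, 3.28 ± 0.656 and 28.5 ± 8.14 RPM, and Slit2 at 38.9 ± 3.24, 123 ± 5.62 and 35.2 ± 21.2 RPM. The rises of Sema3c and Slit2 in the TAZ4A-labelled libraries and of Sema7a in TAZ-CAMTA1 were thus 27.6-fold, 3.16-fold and 10.3-fold (two-sided exact permutation p = 0.1 for each, the smallest that 3 against 3 samples allow). Sema4c, Ephb4 and Plxna4, whose exons overlap antisense genes, had junction RPM ratios of TAZ4A-labelled libraries over control of 0.704, 0.703 and 0.405. By summed reads over the gene these were 0.690, 0.688 and 0.317. In TAZ-CAMTA1 over control, Efna3 and Efna4 had junction RPM ratios of 1.80 and 2.89 (permutation p = 0.1 and 0.3), beside 1.83 and 2.20 by summed reads. For Sema4f, whose CPM rose with both transgenes, each group had 11 junction reads, at 0.394 ± 0.230, 0.379 ± 0.204 and 0.404 ± 0.573 RPM. Ntn1 had 3 junction reads in all, against 22, 156 and 80 reads over the gene in the 3 groups. For both genes a rise of spliced RNA was therefore not detectable at this depth.

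**Figure D5:**
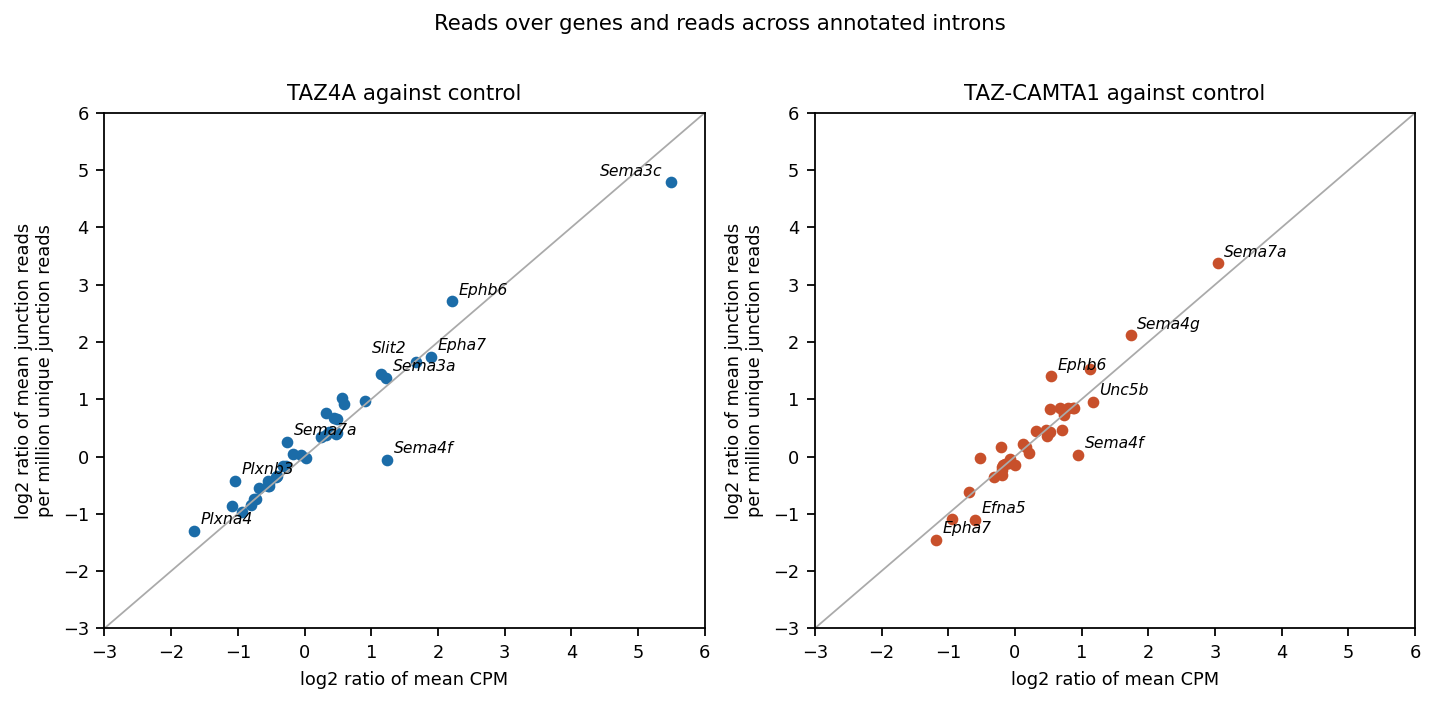
Log2 ratio of mean CPM (horizontal) against log2 ratio of mean junction RPM (vertical) for the tested guidance genes with at least 10 junction reads in both groups, with TAZ4A against control on the left (38 genes with Sema3c at the far right) and TAZ-CAMTA1 against control on the right (37 genes). Points on the grey line have equal ratios, and Sema4f lies farthest below it in both panels.

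Co-receptors and further guidance cues (25 genes, 19 in the table and 11 tested) showed 5 higher and 4 lower in the TAZ4A-labelled libraries, where 13.2% and 11.7% of all genes were called, and 2 higher and 6 lower in TAZ-CAMTA1 against control, where 16.8% and 15.3% were. Leaving out TAZ-CAMTA1 replicate 2, these were 5 and 5 (28.1% and 30.6% of all genes), and 3 and 5 (28.3% and 32.6%). The median log2 fold change was -0.023 and -0.43, beside -0.0089 and -0.034 over all genes. Neo1, neogenin, the DCC family receptor of netrins and RGM proteins, was the most abundant and fell from 981 ± 55.9 CPM to 522 ± 7.72 CPM (-0.91 ± 0.20, adjusted p = 0.0105) and 367 ± 107 CPM (-1.46 ± 0.20, adjusted p = 0.000857). Nrp2, neuropilin 2, the co-receptor of Sema3f, rose from 126 ± 5.91 CPM to 328 ± 129.9 CPM in TAZ-CAMTA1 (1.28 ± 0.28, adjusted p = 0.0087) and stood at 283 ± 4.24 CPM in the TAZ4A-labelled libraries, also a rise (1.17 ± 0.28, adjusted p = 0.0157). The fusion was at 1.68 (adjusted p = 1.56e-13) without TAZ-CAMTA1 replicate 2. Nrp1, neuropilin 1, the co-receptor of Sema3a and named after its values were seen, stood at 47.2 ± 1.77, 28.6 ± 1.26 and 29.5 ± 8.09 CPM, and fell against control in both (-0.71 ± 0.18, adjusted p = 0.0222 and -0.71 ± 0.18, adjusted p = 0.0193). Nrcam, an adhesion molecule that works with neuropilins, rose from 4.58 ± 0.771 to 12.7 ± 0.873 CPM in the TAZ4A-labelled libraries (1.39 ± 0.14, adjusted p = 0.000147), as did Flrt3, from 0.399 ± 0.113 to 1.59 ± 0.115 CPM (1.22 ± 0.14, adjusted p = 0.000256). In TAZ-CAMTA1 both fell (-0.43 ± 0.14, adjusted p = 0.0464 and -0.43 ± 0.14, adjusted p = 0.0434). The fall of Flrt3 was lost without replicate 2 (-0.35, adjusted p = 0.0721). Flrt2, a ligand of Unc5 receptors, fell in TAZ-CAMTA1 from 26.9 ± 2.08 to 11.3 ± 3.81 CPM (-1.27 ± 0.23, adjusted p = 0.00357). It also fell in the TAZ4A-labelled libraries, to 15.8 ± 1.06 CPM (-0.75 ± 0.23, adjusted p = 0.0438). Dcc was listed at 0 in control and TAZ-CAMTA1.

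Cytoplasmic effectors of these receptors (52 genes, 50 in the table and 48 tested) showed 10 higher and 6 lower in the TAZ4A-labelled libraries, against 13.2% and 11.7% of all genes, and 14 higher and 6 lower in TAZ-CAMTA1 against control, against 16.8% and 15.3%. They were, leaving out TAZ-CAMTA1 replicate 2, 17 and 21 (28.1% and 30.6% of all genes), and 25 and 10 (28.3% and 32.6%). The median log2 fold change of the 48 was -0.059 and 0.080. Rnd1, a small GTPase that binds plexins and loosens adhesion, rose from 36.5 ± 2.28 to 140.0 ± 2.92 CPM in the TAZ4A-labelled libraries (1.93 ± 0.13, adjusted p = 1.57e-05), and Grb10, an adaptor, from 19.0 ± 0.666 to 39.7 ± 0.891 CPM (1.05 ± 0.17, adjusted p = 0.00203). In TAZ-CAMTA1 Rnd1 also rose, to 83.7 ± 17.2 CPM (1.17 ± 0.13, adjusted p = 0.000337). Grb10 was at 0.15 ± 0.17, adjusted p = 0.515 there, and at 0.37 (adjusted p = 5.96e-05) without replicate 2. Mical2, an actin oxidising enzyme, fell in the TAZ4A-labelled libraries from 99.2 ± 3.91 to 41.7 ± 1.64 CPM (-1.24 ± 0.23, adjusted p = 0.00433). It also fell in TAZ-CAMTA1, to 62.5 ± 21.1 CPM (-0.72 ± 0.23, adjusted p = 0.0408). In TAZ-CAMTA1 the exchange factor Ngef, which acts downstream of Eph receptors, rose from 1.78 ± 0.615 to 6.37 ± 0.734 CPM (1.62 ± 0.19, adjusted p = 0.000436), and Chn1, a Rac inhibitor downstream of EphA4, from 5.37 ± 0.668 to 14.8 ± 0.335 CPM (1.39 ± 0.10, adjusted p = 3.39e-05). In the TAZ4A-labelled libraries Chn1 also rose, to 8.77 ± 0.663 CPM (0.66 ± 0.10, adjusted p = 0.00158). Ngef was not called there (0.31 ± 0.19, adjusted p = 0.312). Tiam1, a Rac exchange factor, fell in TAZ-CAMTA1 from 65.6 ± 2.74 to 36.9 ± 12.5 CPM (-0.88 ± 0.23, adjusted p = 0.0184, and -0.57 (adjusted p = 5.13e-07) without replicate 2). In the TAZ4A-labelled libraries Tiam1 was at -0.56 ± 0.23, adjusted p = 0.115, and at -0.56 (adjusted p = 1.34e-07) without that replicate.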

How the data were processed

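RNA-seq of 9 libraries (3 groups of 3) was used. Reads were mapped with STAR to mm10, assigned to genes with featureCounts and compared with edgeR, per the submitters' processing notes, where versions are not given, and bcl2fastq and FastQC are also named there. The authors deposited per-gene values that they call CPM. As deposited, these signal values are reads over a scaled library size, so their sums over genes differ between libraries. The design had assumed CPM, and the same log2 test was kept. Whole reads were recovered from 100% of the values (within 0.01 read). The authors also deposited TPM, used for levels between genes, and STAR tables of unique read counts per junction, used relative to each library's total (RPM). Log2 fold changes and false discovery rates (adjusted p-values) of the authors' deposited table were copied as they stand, and 1 was added to its 0-based starts.

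Testing covered the 12350 of 17565 genes that reached 0.5 CPM in 3 or more libraries, done with limma 3.58.1 in R 4.3.3 on log2(CPM + 0.5), with trended and robust variance, 1 fit of 9 libraries with 6 residual degrees of freedom, 3 comparisons and Benjamini-Hochberg adjustment over all tested genes. Libraries held 21966004 to 34224715 reads, and the median standard error was 0.135. In simulated counts for TAZ4A against control (12225 genes), 100 of 100 genes changed 2-fold and 99 of 100 changed 1.5-fold were recovered. The simulation gave every library the same small spread, held no outlying library and changed no genes at low levels. It therefore does not give the share of such changes that the fit finds in these data. Alternatives were other pseudocounts, filters, scalings and library weights, TPM, GENCODE vM4 genes, the 6 samples compared alone, a replicate block, edgeR 4.0.16 on recovered reads, and each library left out. Values in every sample are given for called members with a group mean of at least 5 CPM and for the member of each family with the highest TPM. Other called members have group means, and of the pathway lists at most 2 genes per direction and comparison are named. Members and lists were chosen with earlier results of these data known. The symbol rule matches prefixes, so it also takes Plxna4os1 and Unc5cl.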

Additional observations from a re-analysis of the deposited data

How the results depend on the processing

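Of the 52 calls of members with values by sample, set against 21 alternatives, 1022 comparisons kept their side of the threshold, 69 lost it and 0 changed direction. Sema3c in TAZ-CAMTA1 against control gave no value in a fit of only the 6 samples compared, where it was under the filter. The count of members higher in the TAZ4A-labelled libraries than in control, 13, became 20 in a fit of only the 6 samples compared and 21 with library quality weights, and ran from 11 to 21 with 1 library left out, the highest without TAZ-CAMTA1 replicate 2. The count lower there, 14, became 7 with TPM in place of CPM and ran from 8 to 17 with 1 library left out. It was 8 without control replicate 1 or TAZ4A replicate 3 and 9 without TAZ4A replicate 1. The count lower in TAZ-CAMTA1 than in control, 5, became 2 in a fit of only the 6 samples compared and ran from 3 to 7 with 1 library left out, with 3 without any single control library. The count lower in TAZ-CAMTA1 than in the TAZ4A-labelled libraries, 9, became 14 without a filter on low values, where all 63 members were tested, and 14 with library quality weights, and ran from 8 to 12 with 1 library left out. The 2 other counts, 17 higher in TAZ-CAMTA1 than in control and 19 higher than in the TAZ4A-labelled libraries, stayed within 1.5 times and ran from 16 to 22 and 17 to 21 with 1 library left out. The cause of these shifts was not tested. edgeR on the recovered reads gave 14 higher and 14 lower, 18 and 4, and 19 and 8 in the 3 comparisons. Deviations of same-numbered samples from their group means correlated from -0.12 to 0.52. Between control and TAZ-CAMTA1 the correlation was 0.52 for replicate 2 and 0.39 for replicate 3. Whether samples of the same number share an effect was not tested. With the replicate number as a block the counts were 14 and 14, 17 and 5, and 19 and 9. Under the replicate block Robo4 in TAZ-CAMTA1 against control was no longer called (-0.20, adjusted p = 0.0763). TPM moved the median of all genes by -0.106 on the log2 scale between the transgenes. At these depths members under the filter could not be tested, and low genes rest on few reads.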
